A study of Mus musculus with 6 samples.

Results

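The 10 genes described here encode 8 matrix metalloproteinases (*Mmp2*, *Mmp9*, *Mmp12*, *Mmp13*, *Mmp14*, *Mmp19*, *Mmp25* and *Mmp27*) and a pair of tissue inhibitors of metalloproteinases (*Timp1* and *Timp2*), of 36137 genes quantified in bone marrow-derived macrophages (BMDMs). They were chosen by name as a list, after the counts of the same WT and *Drp1* KO libraries were known, so their levels and fold changes are given as a description of these libraries and not as tests of an expectation. The other 17 genes of the Mmp and Timp family in the annotation were read alongside them.

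Hypoxia serum starvation (HSS) deprives cultured cells of oxygen and serum at the same time and serves as a model of ischemia, here for BMDMs, which are differentiated from marrow cells in the dish. The WT group carried LysM-Cre+/- and Drp1+/+, and the *Drp1* KO group carried LysM-Cre+/- and *Drp1* fl/fl, so that both groups held 1 copy of Cre, which the lysozyme M promoter drives in myeloid cells. The bone marrow of a pair of adult mice per genotype was pooled, and no source used here says whether each library came from its own pool, so that p-values measure the spread between these libraries, which may be technical. Cells were grown with 10% fetal bovine serum and 10% supernatant of L929 cells, and on day 7 they were moved to serum-free starvation medium at 2.1% oxygen for 8 hours, as the sample labels give it; the methods of the study state other values for oxygen and L929 medium. Poly(A) RNA was sequenced in 3 WT and 3 *Drp1* KO libraries, and cells without HSS were not analysed here.

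Estimated counts totalled 24269850 to 28650715 per WT library and 23389488 to 32231206 per *Drp1* KO library. A count of 3, taken as the floor, was 0.0917 to 0.136 CPM (counts-per-million, the counts of a gene scaled to a common library size), and intervals and floors cover counting error only. No library was a copy of another, since the chi-square statistic per degree of freedom was at least 9.50 in each of 15 pairs of libraries. *Dnm1l*, the gene of DRP1, stood at 72.7, 69.9 and 75.1 CPM in WT against 58.7, 60.7 and 66.3 CPM in *Drp1* KO libraries, so the groups did not overlap. Counts of the whole gene do not test the deletion of its floxed part. All 8 macrophage markers were detected in every library, with a summed level of 13412 to 14811 CPM in WT against 11993 to 14417 CPM in *Drp1* KO libraries, and 3 of them were called, *Csf1r* and *Mertk* as lower and *Fcgr1* as higher. In RNA from whole cultures, fewer cells of a type and less RNA per cell cannot be told apart.

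Matrix metalloproteinases are zinc-dependent proteases that are made as inactive proenzymes and cut collagens, elastin, basement membrane and many surface and secreted proteins. Collagenases open fibrillar collagen, gelatinases cut denatured and basement membrane collagen, and membrane-type enzymes act at the cell surface, where they also cut the proforms of other family members. TIMPs bind the active site of these enzymes. TIMP2 also forms a complex with the membrane-type enzyme encoded by *Mmp14* that recruits and activates the *Mmp2* proenzyme. In macrophages the family is known for its part in migration through matrix, tissue repair and vessel growth.

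Of the 10 genes, 7 (*Mmp12*, *Mmp13*, *Mmp14*, *Mmp25*, *Mmp27*, *Timp1* and *Timp2*) matched an entry of the RefSeq promoter table for mouse (GRCm38.p6), which holds 250 bases before and 50 bases after a start. *Mmp2*, *Mmp9* and *Mmp19* had none. Each of the matched sequences occurred exactly 1 time in GRCm39, whose coordinates are given. The 150 bases before the start are printed for *Mmp12*, the most abundant of the genes, from both of its starts, for *Mmp13*, the gene that rose, and for *Mmp25*, the gene that fell most. Capitals mark matches to motifs of activator protein 1 (TGANTCA), the PEA3 type of ETS factor (AGGAAG), the GC box (GGGCGG) or the TATA box (TATAAA) on either strand, none of which overlapped in the printed windows.
Mmp12, upstream start, chr9:7344247-7344396, + strand: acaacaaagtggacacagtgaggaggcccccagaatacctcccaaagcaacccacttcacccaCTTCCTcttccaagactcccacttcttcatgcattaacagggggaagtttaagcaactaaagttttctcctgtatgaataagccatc
Mmp12, downstream start, chr9:7347224-7347373, + strand: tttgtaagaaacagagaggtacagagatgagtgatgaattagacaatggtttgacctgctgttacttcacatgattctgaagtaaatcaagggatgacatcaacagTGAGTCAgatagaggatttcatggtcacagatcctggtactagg
Mmp13, chr9:7272364-7272513, + strand: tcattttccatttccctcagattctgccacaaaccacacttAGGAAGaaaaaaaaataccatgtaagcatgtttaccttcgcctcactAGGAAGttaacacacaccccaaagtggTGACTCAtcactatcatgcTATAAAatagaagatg
Mmp25, chr17:23864244-23864393, - strand: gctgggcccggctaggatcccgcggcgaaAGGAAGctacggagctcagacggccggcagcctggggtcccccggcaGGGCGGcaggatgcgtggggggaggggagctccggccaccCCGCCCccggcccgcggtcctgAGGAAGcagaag
*Mmp13* and the downstream start of *Mmp12* each held an activator protein 1 match, at bases -35 and -44 from the start. Such a match was present in 7.81% of all 32851 promoters of the table over the full 300 bases. The *Mmp13* window also held the PEA3 letters at -109 and -62, which 35.4% of all promoters hold, and a TATA match at -16, which 13.6% hold. The *Mmp25* window had neither an activator protein 1 nor a TATA match, and was 76.0% G and C against 38.7% for *Mmp13* and 40.0% and 46.7% for the downstream and upstream starts of *Mmp12*. It held the GC box at -74 and -34, which 35.7% of all promoters hold, and PEA3 letters at -121 and -12. Among the promoters not printed, *Mmp14* had GC boxes at -19 and -13 and PEA3 letters at -209, *Timp2* had a GC box at -37, *Timp1* had a GC box at -8 and PEA3 letters at -175, -99 and 41, and none of these motifs was found for *Mmp27*. The RefSeq starts of *Mmp14*, *Timp2* and *Timp1* lie 177, 329 and 89 bases downstream of the annotated gene start, so that 150, 134 and 89 of the 150 bases before them are in an annotated exon of the gene, as are 16 bases of the upstream *Mmp12* window and 8 of the *Mmp25* window. A match to such short letters is a description of the sequence and not of binding.

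After HSS, *Mmp13* was higher in *Drp1* KO than in WT BMDMs, and *Mmp25*, *Mmp9* and *Mmp14* were lower, whereas the highly expressed *Mmp12* and *Timp2* showed no difference that passed the test. By edgeR, with Benjamini-Hochberg adjustment over the 18506 genes tested and a threshold of 0.05, 4 of the 10 genes were called, 1 higher and 3 lower. Among all genes tested, 3.36% were called, 2.29% as higher and 1.06% as lower. Since the list was made with these values known, nothing is read from that difference. The libraries of both groups did not overlap for 5 of the 10 genes, 4 with lower levels in *Drp1* KO (*Mmp2*, *Mmp9*, *Mmp14* and *Mmp25*) and 1 with higher levels (*Mmp13*). Over all genes tested 21.9% did not overlap, 10.3% with *Drp1* KO lower and 11.7% with *Drp1* KO higher. The study set looser thresholds, on the fold change and on a p without adjustment. Under these *Mmp2* passed as well, for 5 of the 10 genes, 4 of them lower, against 12.7% of all genes and 5.48% as lower. The median log2 fold change of the 10 genes was -0.16, against 0.0046 for all genes tested. Without WT library 2 the called genes went from 4 to 1 and without *Drp1* KO library 2 to 2. With the replicate numbers as pairs, the same 4 genes were called, where 12% of all genes passed, 5.22% as lower. No source used here states that libraries were paired. The pairs were taken from these same data, and those of libraries 2 and 3 are uncertain. All adjusted p-values with pairs are therefore given as a description.

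**Figure D1:**
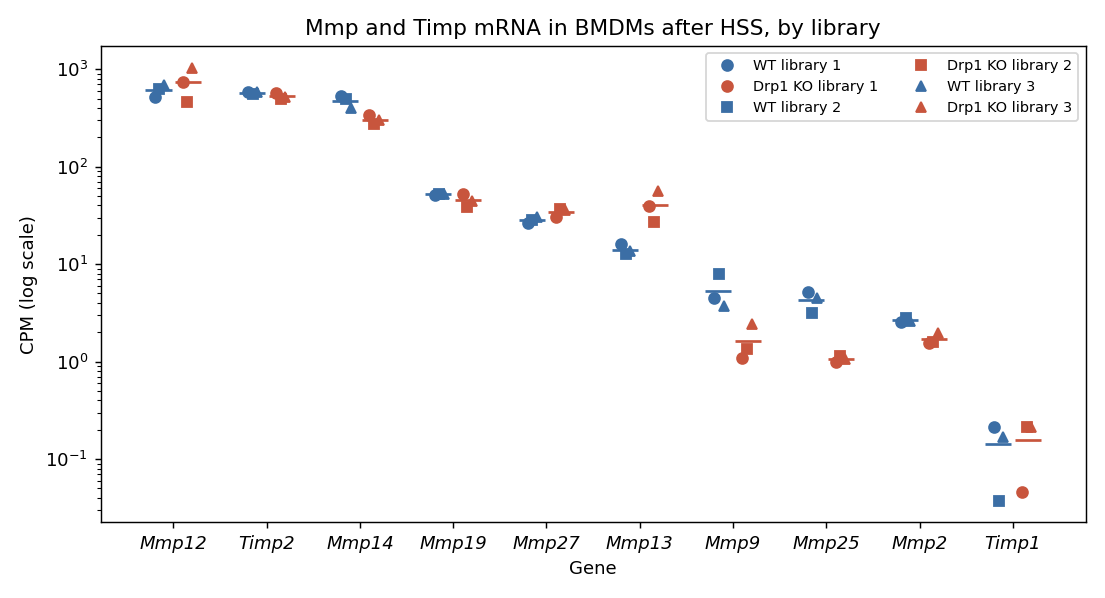
CPM on a log axis of each of the 10 genes in the 3 WT (blue) and 3 *Drp1* KO (red) libraries, with the marker shape giving the library number and a line at the group mean. *Mmp12*, *Timp2* and *Mmp14* lie above the other genes, the *Mmp13* points are separated with *Drp1* KO above WT, the *Mmp9*, *Mmp25*, *Mmp2* and *Mmp14* points with *Drp1* KO below, and *Timp1* lies around the floor.

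Per length of transcript, on the transcripts-per-million (TPM) scale, which divides the counts by length before scaling each library to the same sum, the order in WT BMDMs began with *Mmp12* at 796 ± 142 (SD, n = 3), followed by *Timp2* at 352 ± 31.7 and *Mmp14* at 226 ± 23.9 TPM, with no overlap of libraries between these neighbours. *Mmp19* (28.6 ± 0.692 TPM) and *Mmp27* (27.5 ± 3.35 TPM) followed and overlapped each other. *Mmp13* (9.24 ± 0.907 TPM) and *Mmp9* (5.97 ± 2.83 TPM) overlapped as well, as did *Mmp25* (1.55 ± 0.369 TPM) and *Mmp2* (1.29 ± 0.244 TPM). *Timp1* came last, at 0.293 ± 0.190 TPM. In *Drp1* KO BMDMs the first 3 genes kept that order, at 934 ± 399, 283 ± 41.6 and 139 ± 11.6 TPM. *Mmp13*, at 25.4 ± 10.1 TPM, stood among *Mmp27* and *Mmp19*, whose libraries it overlapped, and *Mmp25*, at 0.333 ± 0.0670 TPM, stood beside *Timp1*, at 0.310 ± 0.197 TPM, and overlapped it.

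*Mmp13* (chr9:7272514-7283331, + strand in GRCm39) encodes a collagenase that cuts fibrillar collagens and is the main interstitial collagenase of the mouse. It was measured at 16.0, 12.8 and 13.6 CPM in WT libraries 1 to 3 and at 39.4, 26.8 and 56.5 CPM in *Drp1* KO libraries 1 to 3. Each *Drp1* KO library was above every WT library, and the *Drp1* KO libraries spread more widely, with library 2 lowest and library 3 highest. *Mmp13* rose 2.90-fold, from 14.1 ± 1.65 to 40.9 ± 14.9 CPM, and the log2 fold change was 1.54 with its standard error (SE) at 0.232 and an adjusted p of 0.00635. Without WT library 2 it had a log2 fold change of 1.46 with an adjusted p of 0.0575, and over all leave-out fits it ran from 1.23 to 1.78. Only 1 transcript of *Mmp13* is in the files, so no share of isoforms bears on its level.

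The gelatinases are encoded by *Mmp9* (chr2:164780439-164797771, + strand), an enzyme of inflammatory cells, and by *Mmp2* (chr8:93553902-93580049, + strand), which stromal cells make in quantity. Both were scarce in these macrophages. *Mmp9* was found at 4.48, 7.83 and 3.68 CPM in WT against 1.09, 1.34 and 2.42 CPM in *Drp1* KO libraries. WT library 2 stood above the other WT libraries and *Drp1* KO library 3 above the other *Drp1* KO libraries, and the groups did not overlap. *Mmp9* fell 3.24-fold, from 5.33 ± 2.20 to 1.62 ± 0.708 CPM, a log2 fold change of -1.70 (SE 0.356, adjusted p = 0.0311). That call rested on individual libraries and on the counting: the log2 fold change was -1.33 without WT library 2 (adjusted p = 0.150), -1.51 without *Drp1* KO library 1 (0.0510), -1.56 without *Drp1* KO library 2 (0.161) and -1.42 with length-scaled counts (0.104). *Mmp2* gave 2.54, 2.81 and 2.62 CPM in WT against 1.54, 1.59 and 1.96 CPM in *Drp1* KO libraries, from 59, 75 and 77 counts against 34, 52 and 64. All 3 *Drp1* KO libraries were below all WT libraries, and the log2 fold change of -0.64 (SE 0.224) had an adjusted p of 0.176, or 0.0642 with the replicate numbers as pairs.

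The *Mmp9* counts came mainly from its coding transcript. Mmp9-201, the full-length coding transcript, held 71.7% of the counts of the gene in WT and 60.7% in *Drp1* KO libraries. Its level was 3.42, 5.16 and 2.89 CPM in WT against 0.776, 0.609 and 1.60 CPM in *Drp1* KO libraries, without overlap. The retained-intron transcript Mmp9-202 and the short Mmp9-204, which has no defined coding sequence, overlapped between the groups. WT library 2 held 1.57 CPM of Mmp9-204 against 0.251 and 0.366 CPM in the other WT libraries. Of the stretches of 31 bases in Mmp9-204, 45 of 1095 occur in no other transcript of the gene, so its assignment had little sequence to rest on.

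*Mmp14* (chr14:54668878-54682821, + strand) encodes the membrane-type collagenase that macrophages use at the cell surface to open collagen and to process the *Mmp2* proenzyme. Its levels were 531, 493 and 400 CPM in WT against 337, 274 and 302 CPM in *Drp1* KO libraries. The lowest WT library was above the highest *Drp1* KO library. *Mmp14* fell 1.56-fold, from 475 ± 67.4 to 304 ± 31.3 CPM, a log2 fold change of -0.64 (SE 0.126, adjusted p = 0.0229). The change was of similar size in every fit that left out 1 library, from -0.76 to -0.56, but the adjusted p rose to 0.128 when WT library 2 was left out, and to 0.114 and 0.0707 when *Drp1* KO libraries 2 and 3 were. Nearly all its counts, 98.3%, were assigned to the coding transcript Mmp14-201.

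*Mmp25* (chr17:23847285-23864251, - strand) encodes a membrane-type enzyme held by a lipid anchor and is known from neutrophils and other leukocytes. It was measured at 5.17, 3.19 and 4.46 CPM in WT against 0.999, 1.13 and 1.07 CPM in *Drp1* KO libraries, from 120, 85 and 131 counts against 22, 37 and 35. The *Drp1* KO libraries lay close together, and each was below every WT library. *Mmp25* fell 3.97-fold, a log2 fold change of -1.99 (SE 0.251, adjusted p = 0.00229). It was called in 12 of 12 alternative fits as well, with log2 fold changes from -2.18 to -1.84 and a highest adjusted p of 0.0186. A long non-coding RNA lies opposite to part of *Mmp25* in the annotation and has no value here, and whether strand was used in counting is not given in the sources used here, so reads of the opposite strand cannot be separated. The same limit holds for *Mmp14*, *Mmp2*, *Mmp27* and *Mmp19*, whose exons also lie opposite to long non-coding RNAs in the annotation.

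Most of the *Mmp25* counts of WT libraries lay in a transcript other than the coding one. Mmp25-203, which is annotated as a target of nonsense-mediated decay, held 79.3% of the counts of the gene in WT and 53.1% in *Drp1* KO libraries. It stood at 4.24, 2.65 and 3.33 CPM in WT against 0.000953, 0.800 and 0.734 CPM in *Drp1* KO libraries, so that *Drp1* KO library 1 had practically none. The coding transcript Mmp25-201 stood at 0.717, 0.278 and 1.01 CPM in WT against 0.832, 0.227 and 0.340 CPM in *Drp1* KO libraries. Its groups overlapped, with means of 0.668 ± 0.368 and 0.466 ± 0.321 CPM. The assignment between these transcripts had little sequence to rest on, because only 27 of the 3223 stretches of 31 bases in Mmp25-203 (0.838%) occur in no other transcript of the gene, against 930 of 4498 (20.7%) in Mmp25-201. Neither transcript was tested on its own.

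**Figure D2:**
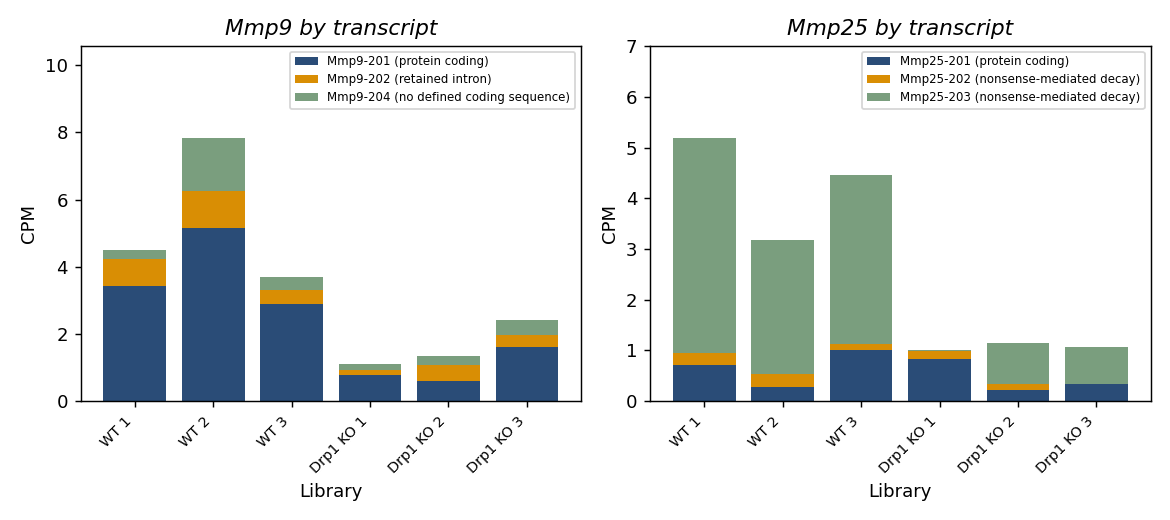
Stacked bars of CPM per library for the transcripts of *Mmp9* (left) and *Mmp25* (right), with each transcript named with its annotated type. The coding Mmp9-201 is the largest part of each *Mmp9* bar and is lower in all *Drp1* KO libraries, and the difference between the *Mmp25* bars lies mostly in Mmp25-203, the nonsense-mediated decay transcript, while the coding Mmp25-201 overlaps between groups.

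*Mmp12* (chr9:7344381-7369499, + strand) encodes the macrophage metalloelastase, which cuts elastin, and was the most abundant metalloproteinase mRNA of every library per length (TPM). In CPM, where *Mmp14* was higher in WT library 1, it reached 519, 627 and 682 CPM in WT against 740, 456 and 1040 CPM in *Drp1* KO libraries. The *Drp1* KO libraries included both the lowest and the highest of the 6 values. The log2 fold change of 0.29 (SE 0.241, adjusted p = 0.638) turned to -0.025 without *Drp1* KO library 3, so *Mmp12* had no direction that held. Between libraries of the same number the log2 ratio was 0.51, -0.46 and 0.61. Over all libraries, Mmp12-203, from the upstream start, held 45.6% of the counts of the gene, Mmp12-202, from the downstream start, held 32.1%, and Mmp12-204, which starts close to it, held most of the rest. Each of the 3 transcripts overlapped between the groups, and these shares are uncertain, because 28 of the 1422 stretches of 31 bases in Mmp12-203 and 29 of the 2030 in Mmp12-204 occur in no other transcript of the gene.

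*Mmp19* (chr10:128626773-128636695, + strand) encodes a secreted enzyme that cuts basement membrane components. Its levels of 51.5, 52.4 and 52.4 CPM in WT against 52.4, 38.9 and 44.6 CPM in *Drp1* KO libraries overlapped. The log2 fold change was -0.20 (SE 0.116, adjusted p = 0.444). On the TPM scale the same libraries did not overlap, at 27.8 to 29.2 in WT and 19.9 to 24.8 in *Drp1* KO. *Tmem198b* lies opposite to *Mmp19* in the genome, touches its exons and had 133 to 246 counts per library.

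*Mmp27* (chr9:7571397-7581891, + strand) encodes a little-studied enzyme related to the stromelysins. It was found at 26.2, 28.3 and 30.5 CPM in WT against 30.4, 36.7 and 36.1 CPM in *Drp1* KO libraries, so the groups met only at the highest WT and the lowest *Drp1* KO library. The log2 fold change was 0.28 (SE 0.114), with an adjusted p of 0.254 and, with the replicate numbers as pairs, 0.0544.

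*Timp2* (chr11:118191887-118246566, - strand), the inhibitor that also helps *Mmp14* to activate the *Mmp2* proenzyme, stood at 586, 556 and 583 CPM in WT against 573, 493 and 516 CPM in *Drp1* KO libraries. These ranges overlapped, and the log2 fold change was -0.13 (SE 0.0959, adjusted p = 0.600). *Cep295nl* lies on the same strand as *Timp2*, touches its exons and had 23 to 108 counts per library. Its level was 2.66 ± 0.980 CPM in WT against 1.28 ± 0.331 CPM in *Drp1* KO. *Timp1* (chrX:20736316-20740976, + strand), an inhibitor known to bind the *Mmp9* enzyme well and the *Mmp14* enzyme poorly, was near the floor, with 5, 1 and 5 counts in WT and 1, 7 and 7 counts in *Drp1* KO libraries. No difference in *Timp1* was detectable at this depth, with 11 against 15 counts in all, and its fitted direction changed when a library was left out. *Syn1* lies opposite to *Timp1*, touches its exons and had 310 to 435 counts per library. *Timp2* was the most abundant TIMP mRNA in both groups.

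The ratio of *Mmp14* to *Timp2* on the TPM scale was 0.635, 0.723 and 0.570 in WT and 0.440, 0.482 and 0.563 in *Drp1* KO libraries. The highest *Drp1* KO ratio lay just under the lowest WT ratio. The ratio of *Mmp13* to *Mmp14* was 0.0410, 0.0354 and 0.0474 in WT and 0.159, 0.132 and 0.251 in *Drp1* KO libraries, also without overlap. Both ratios are made of genes on the list and were not tested.

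The summed level of all 23 Mmp genes was not shifted one way. It came to 1027, 1166 and 1268 TPM in WT against 1220, 814 and 1725 TPM in *Drp1* KO libraries, with means of 1154 ± 121 and 1253 ± 456 TPM. The *Drp1* KO libraries lay on both sides of the WT range. *Mmp12* alone made up 63.2% to 73.6% of that sum in WT, against 69.7% to 78.8% in *Drp1* KO libraries. The share of *Mmp14* was 23.8%, 19.99% and 15.7% in WT and 11.9%, 15.4% and 8.42% in *Drp1* KO libraries, so the groups did not overlap.

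**Figure D3:**
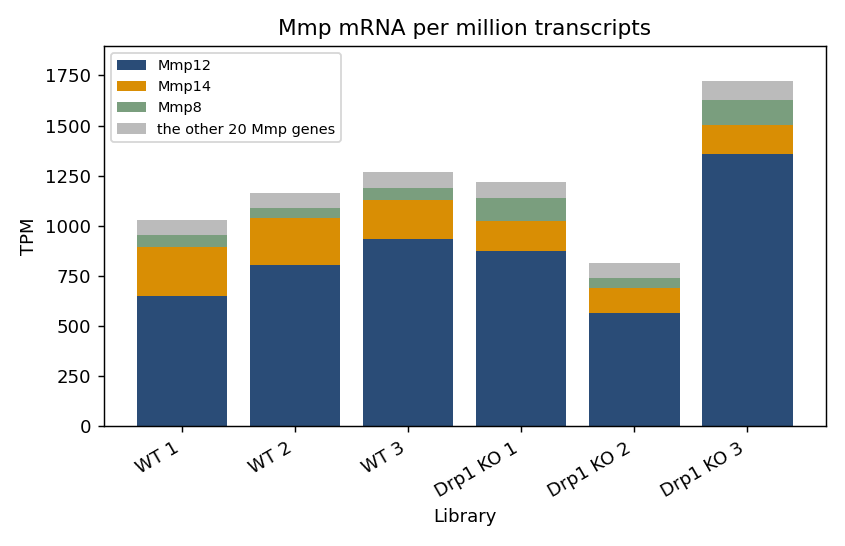
Stacked bars of the TPM of all 23 Mmp genes in each library, split into *Mmp12*, *Mmp14*, *Mmp8* and the other 20 genes. The total is 1027 to 1268 TPM in WT and 814 to 1725 TPM in *Drp1* KO libraries, and the *Mmp14* part is thinner in *Drp1* KO libraries.

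Among the genes of the family outside the list, none was called. Of these 17 genes, 13 had at least 10 counts, 6 with a fold change above and 7 below 0, and the median log2 fold change was -0.10. *Mmp1a*, *Mmp1b* and *Mmp7* had no counts, which allows up to the floor, and *Mmp20*, the enamel protease, had 5. *Mmp8*, a collagenase known from neutrophils, was the third most abundant Mmp mRNA per length, and stood at 89.0, 70.4 and 76.3 CPM in WT against 186, 69.3 and 174 CPM in *Drp1* KO libraries. *Drp1* KO libraries 1 and 3 were far above WT and library 2 was just below it. The log2 fold change of *Mmp8* was 0.86 (SE 0.293, adjusted p = 0.161, and 0.0232 with the replicate numbers as pairs). *Mmp28*, which encodes a secreted enzyme of epithelia and macrophages, stood at 0.388, 0.412 and 0.409 CPM in WT against 1.32, 0.642 and 0.951 CPM in *Drp1* KO libraries, without overlap, with a log2 fold change of 1.24 (adjusted p = 0.144) from 32 against 81 counts.

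The stromelysin gene *Mmp10* (0.379 ± 0.00767 CPM in WT against 0.570 ± 0.252 CPM in *Drp1* KO) and the membrane-type gene *Mmp24* (10 against 22 counts) did not overlap either, both with higher *Drp1* KO levels and adjusted p-values of 0.604 and 0.484. *Timp3*, the inhibitor that binds to matrix, had 2.11 ± 0.336 CPM in WT against 1.68 ± 0.260 CPM in *Drp1* KO libraries (adjusted p = 0.613). *Mmp17*, which encodes a lipid-anchored enzyme, had 1.51 ± 0.544 and 1.19 ± 0.320 CPM. The remaining genes were at or under 0.658 CPM in both groups: *Mmp15* and *Mmp16* of the membrane type, *Mmp11*, *Mmp21* and *Mmp23*, the stromelysin gene *Mmp3* and the inhibitor *Timp4*.

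Of the 27 genes of the family, 10 lie side by side on chromosome 9, from 7272514 to 7699587 in GRCm39, within 427.1 kb. The cluster holds *Mmp12*, *Mmp13* and *Mmp27* of the list together with *Mmp8*, *Mmp10*, *Mmp3*, *Mmp20* and the 3 genes without counts. Of its 6 genes tested, 5 had a log2 fold change above 0 (*Mmp12* only with *Drp1* KO library 3 in the fit), 1 was called and the median was 0.44. Of the 17 family genes elsewhere, 12 were below 0, 3 were called lower and the median was -0.32. These are the called genes of the list, which was made with their values known, and over all genes tested 9141 of 18506 were below 0, 2.29% were called higher and 1.06% lower, so nothing is read from position, which was not tested.

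**Figure D4:**
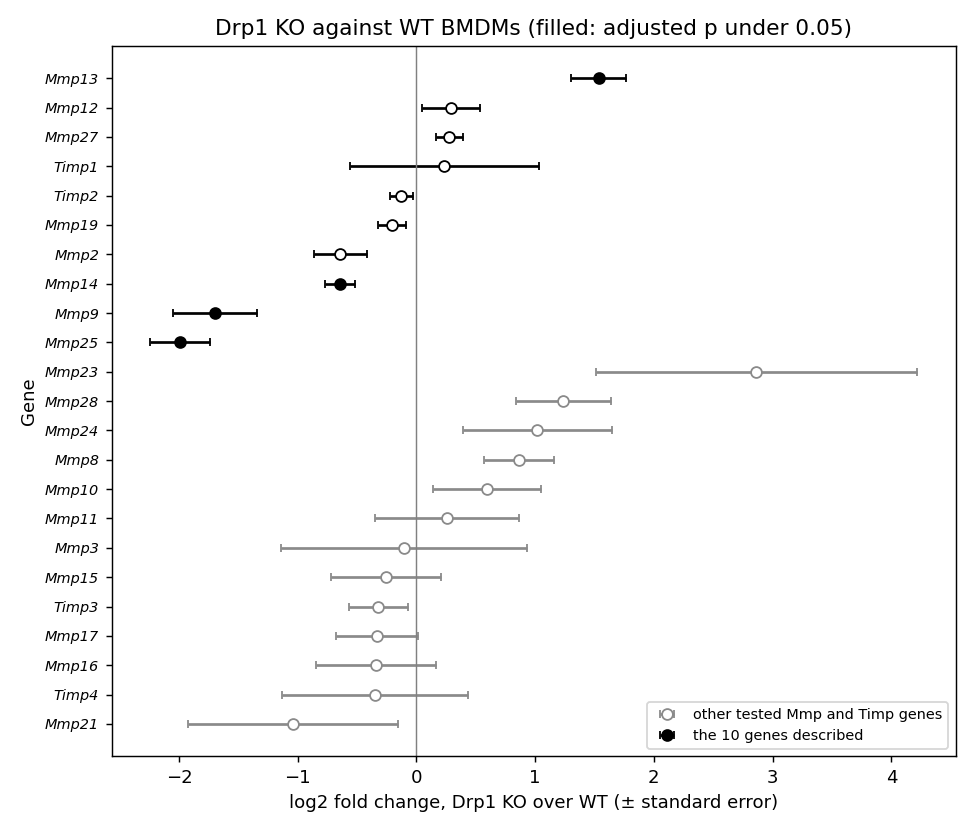
Log2 fold change of *Drp1* KO over WT with its standard error for the 10 genes (black) and the other 13 family genes tested (grey), where filled points have an adjusted p under 0.05. Filled points are *Mmp13* on the right and *Mmp14*, *Mmp9* and *Mmp25* on the left, and wide bars belong to genes of few counts such as *Mmp23*, with 1 against 11 counts.

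Genes that act with the family were read from further lists, which were also drawn up with earlier results of these data known. Of 23 transcription factors linked to Mmp promoters, whose median log2 fold change was 0.03, those of activator protein 1 did not pass. *Fos* stood at 61.8 ± 11.1 and 71.4 ± 7.72 CPM in WT and *Drp1* KO, *Junb* at 103 ± 6.74 and 105 ± 13.0 CPM, and *Jun* at 380 ± 80.9 and 286 ± 59.8 CPM, the last with an adjusted p of 0.271 and 0.00358 with the replicate numbers as pairs. These genes were named after their values were seen.

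Of 8 genes of inhibitors and clearance, 6 were tested and none was called, with a median of -0.13. The most abundant was *Lrp1*, the endocytic receptor that clears several of these enzymes and their inhibitors, at 1882 ± 353 CPM in WT against 1389 ± 185 CPM in *Drp1* KO (log2 fold change -0.44, adjusted p = 0.179, and 0.00480 with the replicate numbers as pairs). In that paired fit *Pcolce*, an enhancer of procollagen processing, passed as lower too (adjusted p = 0.0285). Of 14 activators of the proenzymes and their inhibitors, 10 were tested and none was called, with a median of 0.10. *Furin*, the convertase that activates the membrane-type enzymes inside the cell, stood at 173 ± 37.3 CPM in WT against 159 ± 27.0 CPM in *Drp1* KO. None of 14 surface partners was called, with a median of 0.06. With the replicate numbers as pairs 6 passed, *Itgav* and *Lcn2* as higher and *Bsg*, *Itgb2*, *Itgb3* and *Sdc4* as lower. That fit called 12% of all genes tested, 5.22% as lower. Among the surface partners *Itgb2*, a leukocyte integrin chain, was at 1137 ± 32.8 CPM in WT against 934 ± 135 CPM in *Drp1* KO (adjusted p = 0.264, and 0.0468 with the replicate numbers as pairs).

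None of 16 matrix substrates was called, and 12 of them lay below 0, with a median of -0.32. *Spp1*, the gene of the secreted matrix protein osteopontin, was their most abundant gene, at 2824, 3286 and 3350 CPM in WT against 4326, 4291 and 4328 CPM in *Drp1* KO libraries. The *Drp1* KO libraries were nearly identical and above every WT library, with a log2 fold change of 0.45 (SE 0.107, adjusted p = 0.0508, and 0.00366 with the replicate numbers as pairs). The collagen genes of the list had mean levels under 1 CPM in both groups, for example *Col1a1* at 0.822 ± 0.281 CPM in WT against 0.777 ± 0.0968 CPM in *Drp1* KO. None of 17 other proteases of the matrix was called, with a median of -0.09, and the lysosomal protease gene *Ctsb* led them at 17281 ± 1754 and 19329 ± 986 CPM. With the replicate numbers as pairs 1 of them passed, the lysosomal protease gene *Ctss*, as higher (adjusted p = 0.00544). That fit called 12% of all genes tested.

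**Figure D5:**
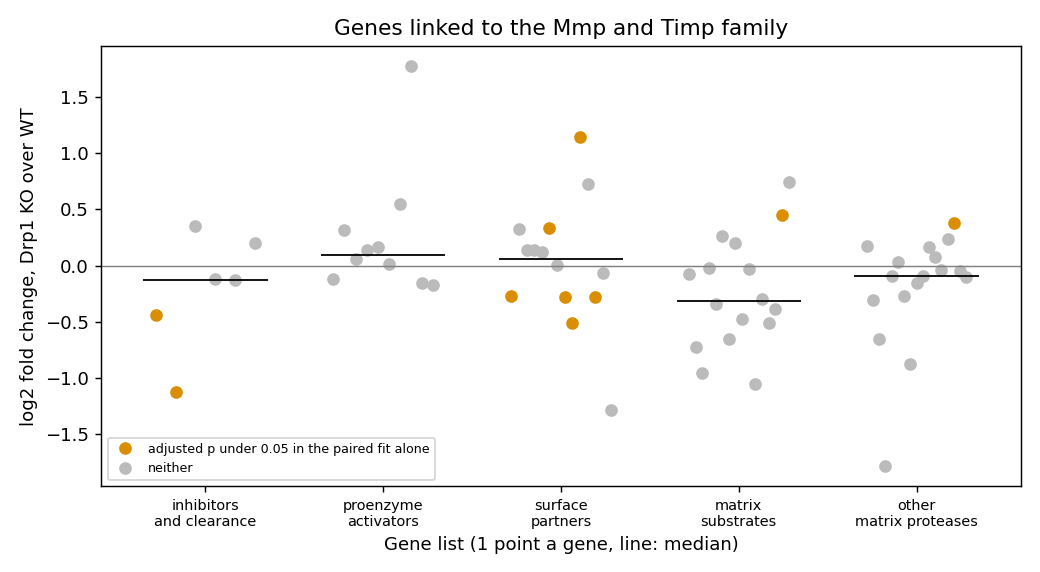
Log2 fold change of *Drp1* KO over WT for each tested gene of 5 lists of inhibitors and clearance, activators, surface partners, substrates and other proteases, 1 point a gene with a line at the list median. Orange points passed only with the replicate numbers as pairs, grey points in neither fit, and the list medians lie between -0.32 and 0.10.

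Several of these enzymes are also made by other cells of the marrow, so markers of such cells were read in the same libraries. Of 11 neutrophil markers 8 were tested and none was called, and their median log2 fold change was 1.16. Their summed level was 52.7 to 66.9 CPM in WT against 65.6 to 95.1 CPM in *Drp1* KO libraries, of which *Csf3r*, a receptor that macrophages also express, held 45.3 ± 1.66 and 43.9 ± 2.00 CPM. *S100a9*, which encodes a calcium-binding protein of neutrophils and monocytes, stood at 3.45, 10.2 and 12.1 CPM in WT and 10.9, 26.2 and 26.4 CPM in *Drp1* KO libraries, higher in *Drp1* KO for each library number, with an adjusted p of 0.139 and 7.85e-05 with the replicate numbers as pairs. *Ly6g*, the defining neutrophil marker of the mouse, had no counts in any library. *S100a8* stood at 1.90, 3.22 and 3.85 CPM in WT against 2.91, 9.65 and 10.8 CPM in *Drp1* KO libraries. With the replicate numbers as pairs 4 neutrophil markers passed as higher (*Ltf*, *Ngp*, *S100a8* and *S100a9*), in a fit that called 12% of all genes tested. *Ngp* (0.862, 3.22 and 2.49 CPM in WT against 4.09, 7.39 and 5.03 CPM in *Drp1* KO) and *Ltf* did not overlap, with *Drp1* KO higher, as for 11.7% of all genes tested. Among *Drp1* KO libraries, library 1 had the lowest *S100a8* with high *Mmp8*. Library 2 had high *S100a8* with the lowest *Mmp8* and *Mmp13*, and library 3 had the highest *S100a8* with high *Mmp8* and the highest *Mmp13*. Other markers differed: of those tested, *Ngp*, *Ltf*, *Camp* and *Csf3r* were highest in *Drp1* KO library 2, and *S100a8*, *S100a9*, *Mpo* and *Cxcr2* in library 3. The part of such cells in these levels was not tested.

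Fibroblast markers summed to 15.2 to 22.6 CPM in WT against 14.1 to 17.0 CPM in *Drp1* KO libraries, mostly *Thy1*, and the defining *Pdgfra* was at 0.258 and 0.224 CPM. None of the 8 fibroblast markers tested was called. Of 9 osteoclast markers 7 were tested, 3 above and 4 below 0 with a median log2 fold change of -0.037, and 1 was called. Their summed levels were 1007 to 1181 CPM in WT and 1043 to 1157 CPM in *Drp1* KO libraries, of which *Atp6v0d2* held 934 ± 83.1 and 940 ± 33.5 CPM. *Acp5*, the tartrate-resistant acid phosphatase gene of osteoclasts and activated macrophages, rose from 9.96 ± 4.91 to 35.2 ± 11.5 CPM (log2 fold change 1.83, adjusted p = 0.0153), and *Itgb3*, an integrin chain, had a log2 fold change of -0.51 without overlap (adjusted p = 0.0629, and 0.00927 with the replicate numbers as pairs), while *Calcr*, the calcitonin receptor gene that defines osteoclasts, had no counts. Dendritic cell markers (5 of 8 tested, none called) summed to at most 4.39 CPM and lymphocyte markers (4 of 7 tested, none called) to at most 4.09 CPM in any library. The part of any of these cells in the levels of the Mmp genes was not tested.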

How the data were processed

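Poly(A) RNA of 3 WT and 3 *Drp1* KO BMDM libraries was sequenced with paired-end reads, and all 6 libraries entered every comparison. The authors quantified transcripts with kallisto 0.46.1 against Ensembl cDNA of GRCm39 and deposited an estimated count and a TPM value per transcript for each library. Whether strand was used in counting is not given in the sources used here.

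Of 116873 transcripts, 116159 (99.39%) were matched to 36137 GENCODE genes of GRCm39, and 0.542% to 0.575% of the counts of a library were in unmatched ones. Estimated counts were summed per gene and rounded, and the 18506 genes with at least 10 counts over all libraries were tested with edgeR 4.0.16 in R 4.3.3 (quasi-likelihood test, TMM normalization, Benjamini-Hochberg adjustment over all genes tested, threshold 0.05). CPM use TMM-scaled library sizes, fold changes are *Drp1* KO over WT, and TPM were summed per gene to compare levels between genes. Library totals of 23389488 to 32231206 counts set a floor of 3 counts at 0.0917 to 0.136 CPM. An exact permutation test of 3 against 3 libraries cannot go below 0.1 (two-sided), so none was used for a call. On simulated data with 200 of 18128 genes changed 2-fold, 78.5% were recovered with 7 false calls. The changed genes were drawn only from genes above a minimum expected count, so that recovery does not cover genes of few counts such as *Timp1*.

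The members and all gene and marker lists were chosen with earlier results of these data known. Named were the 10 genes, each further family gene with at least 10 counts, and of each pathway list the most abundant gene and up to 5 called genes. Other pathway genes were named after their values were seen. These are the activator protein 1 genes, *Pcolce*, *Itgav*, *Lcn2*, *Bsg*, *Itgb3*, *Sdc4*, *Ctss* and *Col1a1*. Markers are named to describe their lists. A result of these lists that the rule would name is not reported here. No source used here states that libraries were paired. The replicate numbers of the labels were taken to pair libraries because of correlated deviations from the group means, over 12248 genes. These correlated at 0.539, 0.218 and 0.352 for libraries 1, 2 and 3 of both groups. WT library 2 correlated more with *Drp1* KO library 3 (0.339), so the pairs of libraries 2 and 3 are uncertain. Alternatives were other normalizations, no filter, DESeq2 1.42.0, length-scaled counts, the replicate block, looser thresholds and leaving out each library, and a TPM comparison was added after the data were seen. Columns of effective length exceeded the transcript length in 17986 transcripts and entered only the length-scaled counts.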

Additional observations from a re-analysis of the deposited data

How the results depend on the processing

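The 4 called genes remained called with DESeq2, with the replicate block and with no filter. The block changed no call of the 10 genes. Leaving out 1 library gave 1 to 4 of them, 1 when WT library 2 was omitted and 2 when *Drp1* KO library 2 was. Over all genes, 621 were called, against 1065 with no filter, 1155 with DESeq2, 2212 with the replicate block and 2345 with the study's looser thresholds on fold change and p, and 181 (without WT library 2) to 904 (without *Drp1* KO library 1) with 1 library left out. Of the pathway genes 1 was called, against 3 with library sizes alone, 7 with no filter, 7 with DESeq2, 16 with the replicate block and 20 with the looser thresholds, and 1 to 4 with 1 library left out. Over all genes tested the share called was 3.36%, against 12% with the replicate block and 12.7% with the looser thresholds. The log2 fold change of *Mmp12* turned from 0.29 to -0.025 without *Drp1* KO library 3 and ran up to 0.55 with other libraries left out. That of *Timp1*, 0.23 from few counts, ran from -0.22 (WT library 2 left out) to 0.62 and turned to -0.00012 and -0.0029 with *Drp1* KO library 2 or 3 left out, and DESeq2 gave *Timp1* no adjusted p. With deposited TPM, chosen after seeing the data and without a test, *Mmp19* moved from -0.20 to -0.35 and *Timp2* from -0.13 to -0.32. The cause of these changes was not tested. *Timp1* and several other family genes had few counts, and the part of depth in their values was not tested.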
